A study of Solanum virginianum with 36 samples.

Results

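Leaf RNA of a thrips-resistant eggplant line was compared with that of a thrips-susceptible line after 24 h of feeding by western flower thrips. The members were the 6 libraries that the labels place at 24 h, 3 of the resistant and 3 of the susceptible line, of 36 libraries in all. The other 30 libraries held the same lines at 0, 4, 8, 12 and 48 h. The resistant group at 24 h consisted of leaves of plants labelled thrip-resistant that had been fed on for 24 h, and the susceptible group of leaves of plants labelled thrip-susceptible fed on for the same time. All plants grew in a greenhouse and were sampled a week after transplanting, and the labels call the 3 libraries of a group biological replicates. The labels name neither cultivar and do not give the number of plants or thrips behind a library. The organism field reads Solanum virginianum, a wild species close to eggplant, although the title is about eggplant. No unfed libraries were labelled at 24 h, so feeding and the time that passed cannot be told apart, and each line stands for its phenotype through 1 line only. The series title names quinic acid, and the comparison addresses how leaf RNA of the resistant line differed from that of the susceptible line a day into feeding.

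Western flower thrips is a small insect that pierces leaf cells and empties them, which leaves silvery scars. Plants answer such feeding mainly through jasmonate signalling, which switches on proteinase inhibitors, polyphenol oxidases and other defences. Quinic acid, which branches from the shikimate pathway, is joined to caffeic acid to form chlorogenic acid, the main phenolic compound of eggplant tissues. The deposited files carry gene IDs without names or descriptions, so none of these genes could be looked up. Leaf markers could not be checked for the same reason. The IDs below are printed as deposited and without a function.

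The libraries at 24 h held 33959621 to 37155828 estimated counts over rows with an ID in the resistant line and 34741490 to 35811014 in the susceptible line. A count was present for 21910 to 22685 IDs per resistant library and for 23980 to 24153 per susceptible library. The 10 most counted IDs took 8.66 to 10.5% of the counts in resistant and 7.46 to 9.69% in susceptible libraries. The scaling factors of the TMM method were 0.811 to 0.966 in resistant libraries, with replicate 1 the highest, and 0.945 to 0.973 in susceptible libraries. Across genes, log2 CPM correlated at 0.948 to 0.96 between libraries of 1 line and at 0.8 to 0.812 between lines. CPM are counts scaled to the usual common library size after TMM. Replicate 1 stood further from the other libraries of its own line in both lines, so results that lean on it are given without it below.

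The lines differed at 24 h in 9298 of 23719 IDs tested (39.2%) by edgeR's quasi-likelihood test with a Benjamini-Hochberg adjusted p under 0.05. IDs past this threshold are referred to as called. In the resistant line 4236 IDs (17.9%) were higher and 5062 (21.3%) were lower. An unadjusted p under 0.05 was reached by 11216 IDs. Without replicate 1 of the resistant line 8873 IDs were called, and without replicate 1 of the susceptible line 8551. Leaving out any other single library at 24 h lowered the count further, to between 7678 and 7981. A fit of only the 6 libraries at 24 h called 6816 IDs, and 4041 with the replicate number as a block. The median difference over all tested IDs was -0.02 on the log2 scale of resistant over susceptible, with quartiles at -0.80 and 0.59. TMM scales libraries to a common centre, so a median close to 0 follows largely from the scaling. Called IDs that were lower in the resistant line lay further from 0 than those that were higher, with medians of -2.08 and 1.21 (log2). In these medians and in the counts by size, an ID without a count in 1 line stood at its bound, the difference to a floor of 3 counts over the 3 libraries of that line. The same excess showed at each size: 2478 called IDs were higher and 3644 lower by more than 2-fold, 983 and 1886 by more than 3 on the log2 scale, and 376 and 807 by more than 5. In bulk leaf RNA, fewer cells of a type and less RNA per cell cannot be told apart.

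A stricter test, edgeR's glmTreat, asked whether a difference exceeded 2-fold. It passed for 3798 IDs (16.0%), with the resistant line above in 1363 (5.75%) and below in 2435 (10.3%). Their median differences at the bound were 3.57 and -4.01 (log2). In 3693 of the 3798 IDs, the 3 resistant libraries lay wholly on 1 side of the 3 susceptible libraries. The test that chose these IDs used the same libraries, so the choice favours such separation. Over all tested IDs, the libraries of the lines did not overlap in 11515 (48.5%), with the resistant line above in 5284 and the susceptible line above in 6231. Limma on log2(FPKM + 1), where FPKM is a count per length and depth, gave 775 IDs past 2-fold, 260 higher and 515 lower. An FPKM was deposited for 73.6% of tested IDs, and limma used only IDs with a mean of at least 1 FPKM. Its count is thus out of fewer IDs than that of glmTreat.

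**Figure D1:**
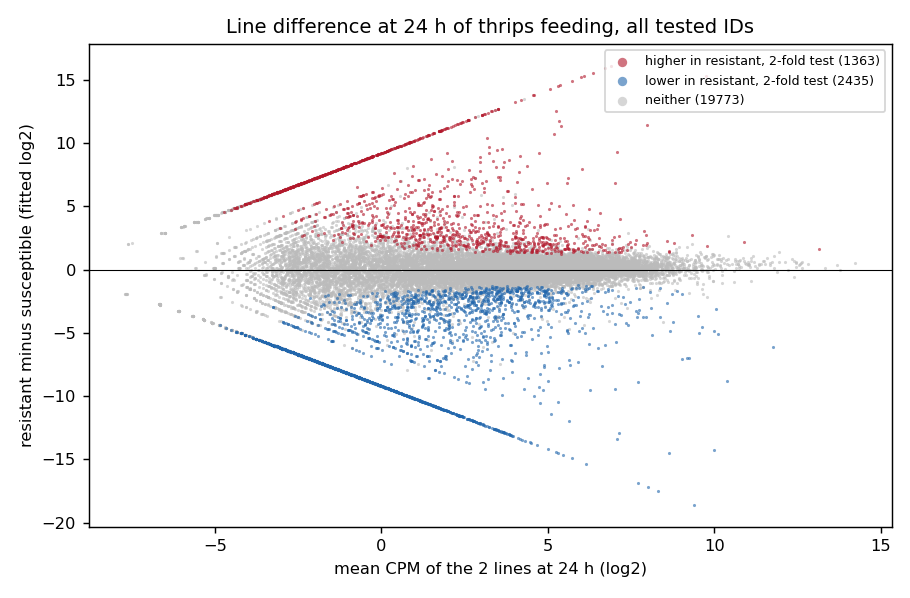
Each point is a tested ID, with the mean CPM of the lines at 24 h (log2) on the horizontal axis and the fitted difference of resistant minus susceptible (log2) on the vertical axis. By edgeR's 2-fold test the resistant line was above in 1363 IDs (red) and below in 2435 IDs (blue), and 148 IDs without a count at 24 h are not drawn. The straight outer arms are IDs without a count in 1 line, whose fitted differences are no bound.

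The share of called IDs that were higher in the resistant line differed with abundance. Under 1 CPM (mean of the lines), 2199 of 5871 IDs were called and 36.2% of these were higher in the resistant line. From 1 to 10 CPM the share higher was 38.1% of 2667 called IDs, from 10 to 100 CPM 52.4% of 3751, and from 100 to 1000 CPM 66.9% of 646. At 1000 CPM or more, 35 of 100 IDs were called, with the resistant line above in 26 and below in 9. Among these most abundant IDs, 2 were higher and 6 lower by the 2-fold test. The median absolute difference was 1.99 (log2) under 1 CPM, 0.89 from 1 to 10 CPM, 0.41 from 10 to 100 CPM, 0.36 from 100 to 1000 CPM and 0.55 above that. Low IDs also carry the largest counting error. CPM do not allow for gene length, so these bins rank IDs by counts and not by transcripts.

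Set against the whole library, the called IDs that were higher in the resistant line took 26.5 to 29.4% of the CPM in resistant libraries and 15.6 to 17.4% in susceptible libraries. Those that were lower took 5.93 to 7.31% in resistant and 16.3 to 19.1% in susceptible libraries. These shares come from the libraries by which the IDs were chosen. The direction of each gap follows from that choice, and its size is favoured by it. The 2435 IDs that were lower by the 2-fold test made up 0.478 to 0.663% of a resistant and 5.69 to 7.27% of a susceptible library. The 1363 that were higher made up 3.96 to 4.77% of a resistant and 0.979 to 1.3% of a susceptible library. IDs that were not called at all held 64.7 to 66.2% of resistant and 65.1 to 66.3% of susceptible libraries.

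A large group of IDs was close to equal in both lines. For 8030 IDs (34.1% of those with a standard error), the 95% interval of the difference lay within 2-fold in either direction. Of these, 1537 were also called, with differences that were measurable but under 2-fold. A further 7780 IDs were neither called nor shown to be within 2-fold, so the data do not place them. Likeness was seen mostly at higher counts, with 25 of 5871 IDs under 1 CPM, 5617 of 9524 from 10 to 100 CPM and 1193 of 1899 from 100 to 1000 CPM. Counted with at least 1 CPM in each of the 6 libraries were 14713 IDs, and 5325 of them were called (36.2%), 2804 higher and 2521 lower in the resistant line. In this well-measured set, 345 were higher and 460 lower by the 2-fold test, and 47 and 100 of these differed by more than 3 on the log2 scale.

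Among IDs past the 2-fold test, counted in every library at 24 h and without overlap between lines, Sme2.5_00758.1_g00014 was the one furthest above the susceptible line. It had 204, 295 and 265 CPM in resistant libraries, against 3.72, 1.07 and 1.97 CPM in susceptible libraries. The lowest resistant library lay far above the highest susceptible one. The difference was 6.82 ± 0.72 (log2, SE; edgeR adjusted p = 2.8e-08). Sme2.5_19951.1_g00001 came next, with 77.2, 60.7 and 61.5 CPM in resistant libraries, against 1.95, 1.61 and 1.65 CPM in susceptible libraries. Its replicates were tight in both lines, and the difference was 5.26 ± 0.52 (log2, SE; edgeR adjusted p = 9.3e-09).

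In the other direction, Sme2.5_04984.1_g00003 had 12.1, 3.22 and 1.80 CPM in resistant libraries, against 2220, 2440 and 3260 CPM in susceptible libraries. The resistant libraries varied several-fold among themselves and still lay far below every susceptible library. The difference was -8.85 ± 1.2 (log2, SE; edgeR adjusted p = 2e-06). Sme2.5_01731.1_g00002 had 13.6, 6.41 and 3.61 CPM in resistant libraries, against 615, 1270 and 1210 CPM in susceptible libraries, a difference of -7.04 ± 1.0 (log2, SE; edgeR adjusted p = 4.7e-06). In both IDs replicate 1 was the highest resistant library. The lack of overlap between lines was a condition of their choice. Both passed the same test at each of the other 5 times, with differences of -7.66 to -5.71 and of -5.94 to -3.85 (log2).

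The most counted ID that was higher in the resistant line by the 2-fold test was Sme2.5_02386.1_g00003. It had 10700, 17400 and 12800 CPM in resistant libraries, against 5920, 3940 and 3150 CPM in susceptible libraries. The groups did not overlap, which the choice required, although the highest susceptible library came within 2-fold of the lowest resistant one. The difference was 1.65 ± 0.32 (log2, SE; edgeR adjusted p = 0.00015), and the 2-fold test passed narrowly (glmTreat adjusted p = 0.038). It was also called at 0, 12 and 48 h, with differences of 1.21, 0.89 and 1.36 (log2; edgeR adjusted p = 0.0034, 0.022 and 0.001). At 4 and 8 h it was not called, with differences of 0.39 and 0.52 (log2; edgeR adjusted p = 0.33 and 0.18). Its difference at 24 h was not shown to depart from the mean of the other times (0.78, log2; edgeR adjusted p = 0.34). Per length the ID averaged 6680 FPKM in resistant and 2040 FPKM in susceptible libraries at 24 h. Sme2.5_12354.1_g00002 had 2500, 3420 and 3360 CPM in resistant libraries, against 792, 654 and 626 CPM in susceptible libraries, a difference of 2.17 ± 0.23 (log2, SE; edgeR adjusted p = 4e-08). Its level also varied with time in both lines. At 0, 8 and 48 h it had group means of 2440, 330 and 3290 CPM in the resistant line, against 640, 65.8 and 1060 CPM in the susceptible line.

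The most counted ID that was lower was Sme2.5_03276.1_g00004, with 150, 92.4 and 48.7 CPM in resistant libraries, against 6310, 6920 and 7540 CPM in susceptible libraries. Its rank by CPM in the susceptible line was 5, and no resistant library came near a susceptible one. The difference was -6.15 ± 0.95 (log2, SE; edgeR adjusted p = 9.2e-06). Sme2.5_04984.1_g00003, given above, was the second of this kind. At 48 h, Sme2.5_03276.1_g00004 stood at 8.37, 5.67 and 46.1 CPM in resistant libraries, against 1560, 771 and 601 CPM in susceptible libraries.

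**Figure D2:**
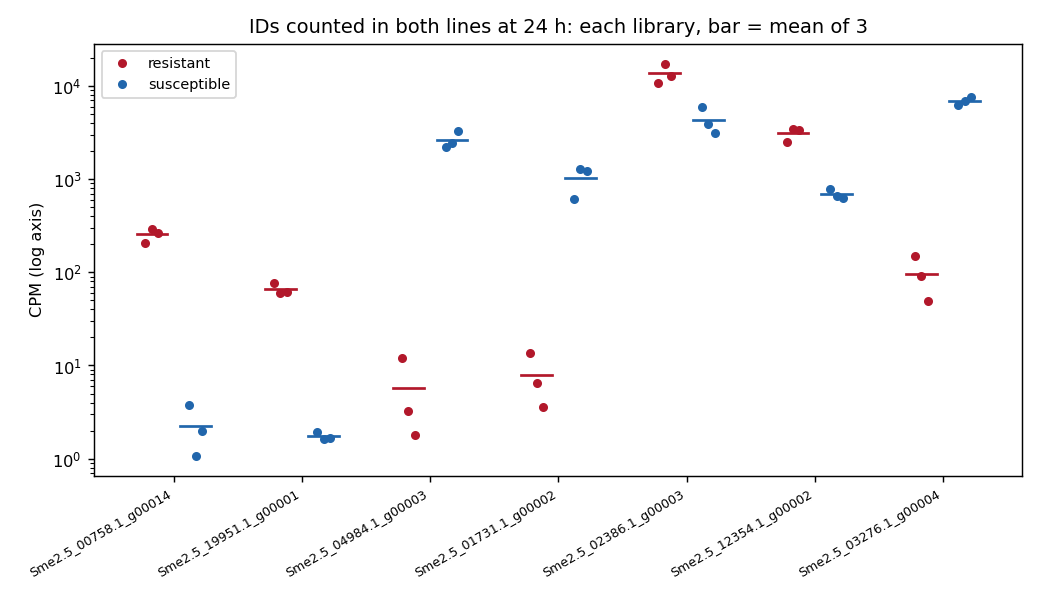
Points are single libraries at 24 h and bars the mean of 3, in CPM on a log axis, with the resistant line in red to the left of the susceptible line in blue for each of 7 IDs counted in every library. The 4 IDs that were higher and the 3 that were lower in the resistant line were chosen among IDs without overlap between lines.

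A separate group of IDs was found in 1 line only at 24 h, with at most 3 counts over the 3 libraries of 1 line and a mean of at least 1 CPM in the other. There were 269 such IDs in the resistant line (1.13% of those tested) and 684 in the susceptible line (2.88%). Without any count in the other line were 219 of the 269 and 607 of the 684. Most were low, with median levels of 2.75 CPM in the resistant and 2.77 CPM in the susceptible line, and 86 and 210 reached 5 CPM. Above 100 CPM stood 6 resistant-only and 9 susceptible-only IDs. These lists summed to 0.247% of the CPM of the resistant line and 0.828% of the CPM of the susceptible line. A count of 3 over a group corresponded to 0.0321 CPM in the resistant and 0.0294 CPM in the susceptible line.

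The highest of the resistant-only IDs was Sme2.5_09812.1_g00003, with 158, 245 and 307 CPM in resistant libraries and no count in any susceptible library at 24 h. Against the floor of 3 counts over the group it was at least 8000-fold higher in the resistant line. Sme2.5_06818.1_g00003 had 192, 220 and 223 CPM in resistant libraries and no count in susceptible libraries, so it was at least 7100-fold higher. Neither ID had a count in any of the 18 susceptible libraries of the series, while both were counted in all 18 resistant libraries. In the resistant line the first stood at 20.7, 12.5 and 3.94 CPM at 4 h, and the second ranged from 50.8 to 270.0 CPM over all times. Such bounds cover counting error only and are in estimated counts.

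The highest of the susceptible-only IDs was Sme2.5_11468.1_g00006, with no count in any resistant library at 24 h and 1100, 1630 and 1300 CPM in susceptible libraries. It was at least 41000-fold lower in the resistant line. Sme2.5_00235.1_g00002 had 0, 0 and 0.0984 CPM in resistant libraries, against 449, 1070 and 883 CPM in susceptible libraries. Its resistant level rests on 3 counts in replicate 3, and the ratio of summed counts, susceptible over resistant, was 25000 with an exact Poisson 95% interval of 8540 to 121000. Both IDs were counted in some resistant libraries at other times. The first reached 8.59 CPM in replicate 3 at 48 h and at most 2.97 CPM in any other resistant library. The second reached 22.0 CPM in replicate 1 at 0 h.

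Over the whole series, 132 of the 269 resistant-only IDs had at most 3 counts in all 18 susceptible libraries together, 117 of them none. Of the 684 susceptible-only IDs, 299 had at most 3 counts in all 18 resistant libraries, 209 of them none. Replicate 3 of the resistant line at 48 h held a count for 335 of the 684, against 54 to 112 in each other resistant library outside 24 h. Without that library, 456 of the 684 had at most 3 counts in the resistant line. At 1 CPM or more in a library of the line that lacked them at 24 h were 42 of the 269, and 62 of the 684, or 44 without that library. What set it apart was not tested.

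The IDs carry a number after a shared first part, and tested IDs with consecutive numbers were set side by side. The files do not state what the parts mean. Of 12000 such pairs, both members passed the 2-fold test in 333, and in 264 of these (79.3%) they differed in the same direction. Over all tested IDs 16.0% passed this test, and the 333 pairs are not read as an excess. Next to an ID that was higher in the resistant line, 64.2% of neighbours that passed were higher, and next to one that was lower 14.6% were higher, against 35.9% over all 3798 IDs. Of 334 susceptible-only IDs with a tested neighbour, 64 lay next to another susceptible-only ID, and of 144 resistant-only IDs 8 lay next to another of their kind. Over all tested IDs, 2.88% were susceptible-only and 1.13% resistant-only. An ID can have a neighbour on each side, and the counts for IDs at random positions were not worked out. A resistant-only and a susceptible-only ID were neighbours in 5 pairs. Neighbours can share reads or be pieces of 1 gene, so they are not independent.

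The line differences at 24 h were then set beside those at the other 5 times. These comparisons share no library with the 24 h comparison, but they set the same lines side by side and come from 1 fit with 1 spread per gene. Called were 8218 IDs (34.6%) at 0 h, 9817 IDs (41.4%) at 4 h and 10141 IDs (42.8%) at 8 h. The later comparisons called 10596 IDs (44.7%) at 12 h and 10028 IDs (42.3%) at 48 h. In the same direction as at 0 h were 6255 IDs, which is 67.3% of the 24 h list and 76.1% of the 0 h list. With the 8 h list 6063 were shared, or 65.2% of the 24 h list and 59.8% of the 8 h list. With the 48 h list 7081 were shared, or 76.2% of the 24 h list and 70.6% of the 48 h list. Opposite calls were most frequent against 8 h, with 218 IDs, and numbered 16 against 0 h, 97 against 4 h, 27 against 12 h and 14 against 48 h. Among IDs of at least 1 CPM on average (18118 to 18122 of them, not independent of each other), the 24 h differences had Spearman correlations of 0.762 with those at 0 h and of 0.695 with those at 4 h. Against the later times the correlations were 0.609 (8 h), 0.744 (12 h) and 0.794 (48 h).

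Of the 9298 IDs called at 24 h, 4050 (43.6%) were called in the same direction at all 5 other times, 1571 higher and 2479 lower in the resistant line. For the 3798 IDs past the 2-fold test the share was 75.8% (2878 IDs). In the same direction at none of the other times were 597 of the 9298 (6.42%), of which 307 were higher and 290 lower. At 1 other time it was 940, at 2 it was 1094, at 3 it was 1238 and at 4 it was 1379. The median absolute difference at 24 h was 0.96 (log2) for the 597 and 3.14 for the 4050. A missed call at another time does not show that the difference was smaller there, which the contrast below tests.

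**Figure D3:**
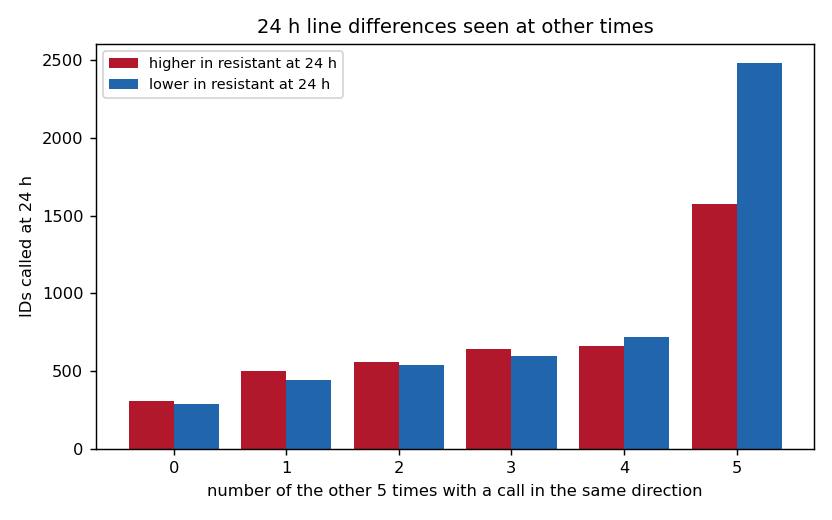
Bars give the number of IDs called between lines at 24 h by the number of the other 5 times with a call in the same direction, in red for those higher and in blue for those lower in the resistant line. The tallest bars stand at 5 other times, with 1571 IDs higher and 2479 lower.

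The IDs past the 2-fold test at 24 h had median differences of similar size at the other times. The 1363 that were higher had median differences (log2, at the bound) of 3.20, 3.36, 3.24, 3.41, 3.57 and 3.28 from 0 to 48 h. For the 2435 that were lower the medians were -3.89, -3.92, -4.18, -3.99, -4.01 and -3.77 in the same order of times. The sign at 24 h was found again in 97.1% of these IDs at 8 h and in 98.1 to 99.4% at the other times. Since the IDs were picked at 24 h, the 24 h medians are the ones the choice favours.

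**Figure D4:**
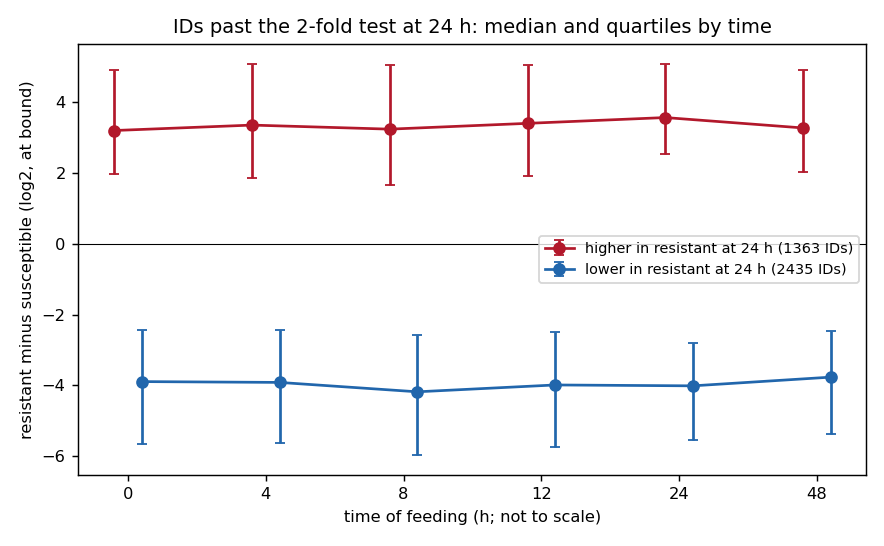
Points are median differences of resistant minus susceptible (log2, at the bound) and bars run over the quartiles, at each time of feeding, for the 1363 IDs that were higher (red) and the 2435 that were lower (blue) by the 2-fold test at 24 h. The medians stay between 3.20 and 3.57 and between -4.18 and -3.77 at every time.

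Whether a difference at 24 h departed from the mean difference at the other 5 times was tested as 1 contrast in the same fit. It passed for 130 IDs (0.548%) by edgeR's quasi-likelihood test, 80 (0.337%) above and 50 (0.211%) below the other times, while 2924 IDs had an unadjusted p under 0.05. DESeq2 called 588 IDs for this contrast. With 1 library left out the count ran between 33 without susceptible replicate 2 at 24 h and 353 without susceptible replicate 1 at 24 h. It was 257 without resistant replicate 1, 59 without resistant replicate 2, 62 without resistant replicate 3 and 55 without susceptible replicate 3 at 24 h. The split depended on the scale, since limma on FPKM as deposited put 84 IDs above and 145 below, and on FPKM scaled by TMM 117 above and 92 below. The 130 IDs had a median absolute contrast of 1.29 (log2), against 0.34 over all tested IDs. They were chosen by this contrast in these libraries, so the larger median follows from the choice.

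Of the 130 IDs, 106 were called between lines at 24 h, against 39.2% of all tested IDs. The contrast contains the 24 h difference itself, so passing it favours such a call. In 56 of the 130 IDs the difference at 24 h had the opposite sign to the mean difference at the other times. In 54 it was wider and in 20 narrower. The sign alone was used, also where either difference was very small. Sme2.5_00155.1_g00020, for example, had 1.14 at 24 h against -0.01 at the other times (log2 CPM), so the 56 are not all clear reversals. Setting each line against its own mean at the other times in log2 CPM, the larger shift was in the resistant line in 38 IDs, 27 of them up and 11 down at 24 h. In the other 92 the larger shift was in the susceptible line, 39 up and 53 down. Of the 487 IDs called between lines at 24 h and at no other time in either direction, 8 passed the contrast. In the other direction, 177 IDs were not called at 24 h but were called in the same direction at all 5 other times.

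The IDs with the smallest p of this contrast in each direction, chosen after their values were seen, kept their calls in all 45 alternatives. Sme2.5_06023.1_g00001 had 43.9, 60.5 and 54.3 CPM in resistant libraries at 24 h, against 14.0, 5.86 and 7.27 CPM in susceptible libraries. In the susceptible line this was the lowest time, below 23.9 to 29.5 CPM at 48 h and 47.0 to 95.3 CPM from 0 to 12 h. Resistant libraries of the other times held 48.1 to 89.2 CPM. The contrast was 2.22 ± 0.24 (log2, SE; edgeR adjusted p = 1.3e-05). The lines differed by 2.55 ± 0.22 at 24 h, by 1.11 at 48 h and by -0.30 to 0.67 from 0 to 12 h (log2).

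Sme2.5_01512.1_g00012 showed the reverse. It had 15.9, 10.9 and 9.91 CPM in resistant libraries at 24 h, against 76.1, 75.3 and 74.0 CPM in susceptible libraries. In the resistant line it stood at 96.0 to 143 CPM in every library of the other times, and thus was low at 24 h alone. Susceptible libraries of the other times held 59.0 to 105 CPM, except replicate 3 at 48 h with 10.6 CPM. The contrast was -3.33 ± 0.37 (log2, SE; edgeR adjusted p = 1.3e-05). The lines differed by -2.62 ± 0.34 at 24 h and by 0.26 to 1.33 at the other times (log2).

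Among IDs past the contrast with at least 5 CPM in the higher line at 24 h, at least 1 CPM in each of its libraries and no overlap between lines, the contrasts furthest above 0 were those of Sme2.5_01976.1_g00004 and Sme2.5_28481.1_g00001. IDs at lower levels, some with contrasts further from 0, are not named. Sme2.5_01976.1_g00004 had 5.99, 6.44 and 9.68 CPM in resistant and no count in susceptible libraries, at least 250-fold higher. At the other times, susceptible libraries held 0 to 21.3 CPM and resistant libraries 0.274 to 12.4 CPM, so single libraries varied widely. Its edgeR adjusted p was 0.041, and 13 of 41 alternatives ended the call, with an adjusted p of up to 0.19. Sme2.5_28481.1_g00001 had 4.15, 6.14 and 7.28 CPM in resistant and no count in susceptible libraries at 24 h, at least 190-fold higher. Resistant libraries of the other times held 3.05 to 7.01 CPM and susceptible libraries 0 to 1.41 CPM, with 0 h replicate 1 also at 0. Its edgeR adjusted p was 0.011, and 5 of 45 alternatives ended the call, among them limma on log2(FPKM + 1) with a contrast of 1.07 and an adjusted p of 0.16. The fitted contrasts of 12.16 and 7.71 (log2) are set by the groups at 0 and are no bounds.

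Among the same IDs of at least 5 CPM, the contrasts furthest below 0 were those of Sme2.5_23785.1_g00001 and Sme2.5_06962.1_g00002. Sme2.5_23785.1_g00001 had 0, 0.0664 and 0 CPM in resistant libraries at 24 h, against 226, 346 and 232 CPM in susceptible libraries. Susceptible libraries held 28.3 to 218 CPM at the other times, and resistant libraries never more than 0.659 CPM. The contrast was -4.83 ± 1.0 (log2, SE; edgeR adjusted p = 0.023), but it rests on 2 counts in the resistant line. The 4 of 45 alternatives that ended the call each left out 1 library at 24 h, with an adjusted p of up to 0.11. Without resistant replicate 2, which holds those counts, the contrast was -7.71.

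Sme2.5_06962.1_g00002 had 0.183, 0.232 and 0.263 CPM in resistant libraries at 24 h, against 21.1, 15.3 and 16.8 CPM in susceptible libraries. From 4 to 12 h and at 48 h no susceptible library exceeded 0.817 CPM, and no resistant library of any time exceeded 0.302 CPM. At 0 h the susceptible line stood at 19.2, 0.859 and 18.7 CPM, so replicates 1 and 3 reached the level of 24 h and replicate 2 did not. The contrast with the mean of the other times was -3.93 ± 0.68 (log2, SE; edgeR adjusted p = 0.004) and passed in all 45 alternatives. Against 0 h alone it was -0.58 (edgeR adjusted p = 0.95).

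**Figure D5:**
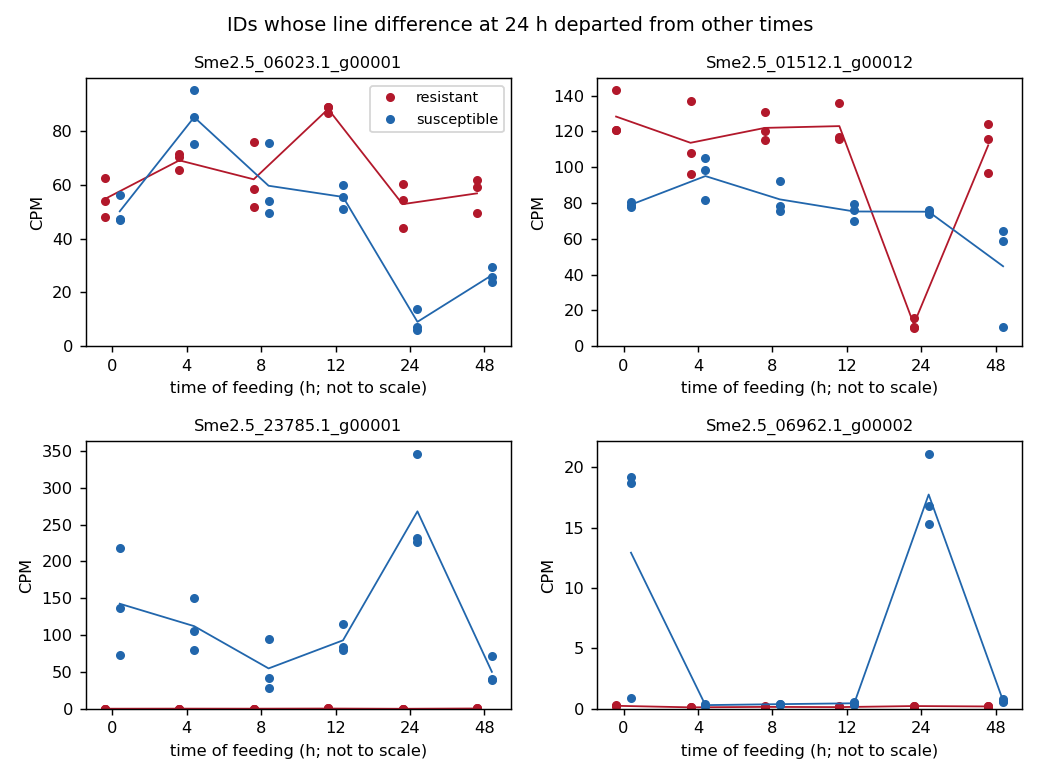
Points are single libraries in CPM and lines join group means at each time of feeding, with the resistant line in red and the susceptible line in blue, for the 2 IDs with the smallest p of the contrast (top) and the 2 with contrasts furthest below 0 among those of at least 5 CPM in the higher line (bottom). The susceptible line was low at 24 h in Sme2.5_06023.1_g00001 and high in the lower panels, and the resistant line was low in Sme2.5_01512.1_g00012.

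The same contrast against 0 h alone asked whether the line difference after a day of feeding departed from that before feeding. It passed for 54 IDs (0.228%) by edgeR's quasi-likelihood test, 28 above and 26 below 0, while 2316 had an unadjusted p under 0.05. DESeq2 called 354. The count was 16 in the fit of only the 4 groups compared, and with 1 library left out it ran between 34 without susceptible replicate 3 and 111 without susceptible replicate 1 at 24 h. It was 104 without resistant replicate 1, 35 without resistant replicate 3 and 35 without susceptible replicate 2 at 24 h. Limma on log2(FPKM + 1) put 28 above and 54 below. Of the 130 IDs of the contrast with all other times, 26 also passed here, among them Sme2.5_06023.1_g00001 with 2.42 (edgeR adjusted p = 7.9e-05) and Sme2.5_01512.1_g00012 with -3.31 (edgeR adjusted p = 0.00042). Both contrasts use the same libraries at 24 h, and the mean of the other times includes 0 h. The overlap is thus built in and is no independent check.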

How the data were processed

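The authors deposited whole-number estimated counts per gene ID for 36 libraries and FPKM values for the first 65535 of the 89388 rows. FastQC and HTSeq 0.6.1 are named per the submitters' processing notes, and the aligner and genome build are not given in the sources used here. The whole numbers were taken for read counts at first, but where FPKM and count kept a fixed ratio (9768 IDs, SD of the log ratio under 0.05) a deposited 1 stood for a median of 0.32 and a 2 for 1.52. They were treated as estimates rounded up and tested as deposited. The 3945 rows without an ID, with 4.46 to 7.28% of the counts of a library, entered neither library sizes nor tests. Of 85443 IDs, 33340 had a count and 23719 passed filterByExpr.

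All 36 libraries were fitted in R 4.3.3 with edgeR 4.0.16 (quasi-likelihood, TMM, 1 mean per group, Benjamini-Hochberg over all tested IDs). Standard errors were derived from the F statistic. The tests were tested on simulated data. Alternatives used DESeq2 1.42.0, limma 3.58.1 on log2(FPKM + 1), which understates differences of low IDs, other filters, scalings and blocks, and fits without single libraries. Left out in turn were each library at 24 h and resistant replicate 3 at 48 h. For the contrasts between times, fits without each of 29 libraries of other times were added after seeing the data, as were the IDs with the smallest p.

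Named were at most 2 IDs in each direction for each of 4 kinds: counted in both lines (at least 1 CPM in all 6 libraries, largest difference), found in 1 line only (highest CPM), most abundant (both by the 2-fold test without overlap) and the contrast with other times (at least 5 CPM in the higher line, at least 1 CPM in each of its libraries, no overlap, largest contrast). The choice of groups and lists was made with earlier results of these data known.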

Additional observations from a re-analysis of the deposited data

Results flagged for a closer look

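The line difference at 24 h departed from the mean of the other 5 times for 130 IDs and from that at 0 h for 54 IDs by edgeR's quasi-likelihood test. The fitted contrasts (log2) were 12.16 for Sme2.5_01976.1_g00004, 7.71 for Sme2.5_28481.1_g00001, -4.83 for Sme2.5_23785.1_g00001 and -3.93 for Sme2.5_06962.1_g00002. The IDs with the smallest p had contrasts of 2.22 for Sme2.5_06023.1_g00001 and -3.33 for Sme2.5_01512.1_g00012.

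Rows without an ID, which the comparisons above do not use, also differed between lines. By edgeR's quasi-likelihood test 1686 of 3301 such rows (51.1%) passed at 24 h, with the resistant line above in 525 and below in 1161. They held 4.47 to 4.67% of the counts in resistant libraries and 5.55 to 6.04% in susceptible libraries at 24 h.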

How the results depend on the processing

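Each library at 24 h, or resistant replicate 3 at 48 h, was left out in turn. The 9298 differences between lines at 24 h then ranged between 7678 and 9368, and the 3798 past 2-fold between 3260 and 3827. The 8030 alike ranged between 7176 and 8014, and the 4050 seen at all times between 3887 and 3966. With 1 library at 24 h left out, the 269 resistant-only IDs ranged between 260 and 324 and the 684 susceptible-only IDs between 666 and 785. For the contrasts each of the 36 libraries was left out in turn. The contrast with the other times ranged between 33 and 353 and that with 0 h between 34 and 111. At 24 h, the deviations of libraries with the same replicate number correlated between lines at 0.00515, -0.0283 and -0.0151. Libraries with unlike numbers gave -0.0604 to 0.0788. With 3 libraries a group at 1 time, this cannot decide whether the numbers mark a pairing. With the number as a replicate block in the fit of all libraries, the counts were 9290, 3723 past 2-fold, 8061 alike, 138 for the contrast with the other times and 46 for that with 0 h. In a replicate block fit of only the groups compared they were 4041, 1086 past 2-fold and 6 for the contrast with 0 h. Without the block, that fit gave 6816, 2815 and 16. With the block it ended the call of Sme2.5_02386.1_g00003 at an unmoved difference of 1.65 (log2; edgeR adjusted p = 0.058), and without it the call held (edgeR adjusted p = 0.014). The cause was not tested. Limma on log2(FPKM + 1) gave 4785, 775 past 2-fold, 229 for the contrast with the other times and 82 for that with 0 h. With FPKM + 0.1 it gave 4835 and 1163 past 2-fold, with TMM-scaled FPKM 5024, 829 and 209, and without a filter 727 past 2-fold, 18144 alike, 234 and 126. Fewer IDs have an FPKM, and the pseudocount shrinks low IDs. DESeq2 gave 588 and 354 for the contrasts. With a minimum of 5 CPM, 86 resistant-only and 210 susceptible-only IDs were left. No named ID changed the sign of its difference, but the split of the contrast with the other times turned from 80 above and 50 below to 84 and 145 with limma on log2(FPKM + 1), 66 and 112 with FPKM + 0.1 and 95 and 139 without a filter. That of the contrast with 0 h was 28 and 26, against 28 and 54, 22 and 41, and 50 and 76. A fit of fewer groups was not run for the contrast with the other times, which uses all groups. Values of 1 or 2 estimated counts limit what can be read from IDs near the floor.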
